A study of Homo sapiens with 8 samples.

Results

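Both lines of the ovarian cancer model UWB1.289 received the same dose of entinostat for the same time, and the response described here is the one that the lines have in common. All 8 of the 8 libraries of the series were used: 4 from cells in entinostat were compared with 4 from cells in the DMSO vehicle, and the line entered the model as a covariate. UWB1.289 is an established human ovarian carcinoma cell line whose own BRCA1 is mutated (BRCA1-null). Its partner is a derivative into which the BRCA1 gene was introduced by transduction (BRCA1+). The 4 groups, of 2 libraries each, were BRCA1+ DMSO, BRCA1+ entinostat, BRCA1-null DMSO and BRCA1-null entinostat, with 0.5 uM entinostat or DMSO for 24 h. Poly(A) RNA was sequenced. Each line is a single line, nothing in the sources states that the 2 libraries of a group came from separate cultures, and the p-values therefore measure only the spread between these samples, which may be technical.

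Histone deacetylases (HDACs) remove acetyl groups from lysines of histones and other proteins, and the class I enzymes HDAC1, HDAC2 and HDAC3 do so as the catalytic part of large corepressor complexes such as NuRD, CoREST, SIN3 and NCoR/SMRT. Entinostat is a benzamide inhibitor of class I HDACs. Inhibitors of this kind raise histone acetylation and are known for inducing the cell cycle inhibitor CDKN1A (p21) and for releasing genes that corepressors hold at a low level in epithelial cells, among them neuronal genes repressed by REST.

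The deposited counts summed to between 31900158 and 53549893 per library, so that 3 counts, the limit that a count of 0 allows, corresponded to 0.0552 to 0.0946 CPM, which is counts per 1000000 of the effective library size. These floors cover counting error only. The label of the cells was checked against markers: the summed level of 14 ovarian carcinoma and epithelial markers was 14303 to 18664 CPM per library, against 3.66 to 14.5 for 10 leukocyte markers, 28.9 to 105 for 9 endothelial markers and 13.7 to 84.5 for 10 fibroblast markers. CD3D and MS4A1, which define T and B cells, and COL3A1, DCN and LUM, which define fibroblasts, had 0 counts in all libraries.

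Of 17714 genes tested, 4967 (28.0%) were called at an adjusted p under 0.05 in the pooled comparison (edgeR quasi-likelihood test). In bulk RNA a change in the number of cells of a kind and a change in RNA per cell cannot be told apart. Entinostat raised 2892 genes (16.3%) and lowered 2075 (11.7%), so that 58.2% of the called genes were higher, and with upper-quartile scaling the share was 65.3%. The sizes were unequal. The median log2 fold change was 0.53 among genes called higher and fell by 0.26 among genes called lower, beside 0.0046 over all genes tested. Counting log2 fold changes of 1 or more in size, 668 genes (3.77%) were higher and 39 (0.220%) lower, so that 94.5% of these 707 genes had risen. Beyond 2 on the log2 scale there were 117 genes on the higher side and 5 on the lower side, and 4 of those 5 are keratin genes whose counts are shared with their neighbours, as described further on.

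The replicate numbers were taken to pair the libraries within each line, and with that pairing as a block the fit called 7075 genes, 3893 higher and 3182 lower. Of the 4967 calls, 4963 were also made by the blocked fit, with the same sign. Within the lines taken singly, 2503 genes (14.1%) were called in BRCA1+ and 1906 (10.8%) in BRCA1-null. Of the 4967 pooled calls, 1212 were also called in both lines, 1759 in 1 line and 1996 in neither line alone, and the blocked fit gave 3808 in both lines. Genes called in the pooled comparison and in both lines had a median absolute log2 fold change of 0.74 where higher and 0.37 where lower, against 0.36 and 0.22 for those called in neither line alone. The lines moved in opposite directions for 13 of the genes called higher and 3 of those called lower. No gene passed the test of the difference between the lines (edgeR quasi-likelihood interaction, smallest adjusted p = 0.660, with 827 of 17714 genes under an unadjusted p of 0.05), which does not show that the effects were equal. In each line both entinostat libraries lay beyond both DMSO libraries in the same direction for 5990 genes (33.8% of those tested), 2627 of the 2892 called higher and 1873 of the 2075 called lower among them.

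**Figure D1:**
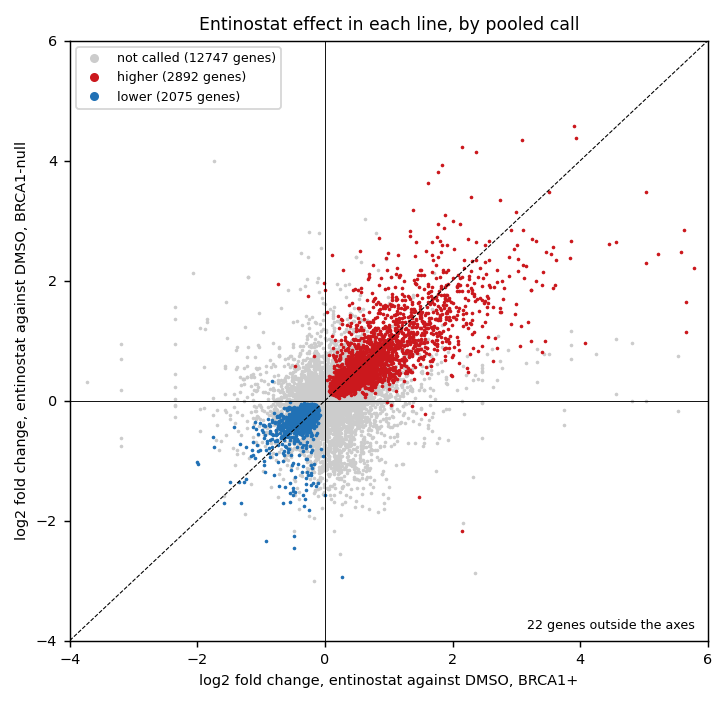
Log2 fold change of entinostat against DMSO in BRCA1+ cells (horizontal axis) and in BRCA1-null cells (vertical axis) for each of 17714 genes, coloured by the pooled call; the dashed line marks equal effects, and 22 genes fall outside the axes. The 2892 genes called higher reach far up the diagonal, while most of the 2075 called lower stay close to 0.

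NOTCH3, a receptor of the Notch pathway, had one of the 2 lowest p-values of all genes. Its gene lies at chromosome 19, 15270444 to 15311792 (hg19, minus strand). It measured 24.7 and 24.2 CPM in BRCA1+ cells with DMSO and 114 and 123 with entinostat, and 16.9 and 16.8 CPM in BRCA1-null cells with DMSO and 65.0 and 58.6 with entinostat. The entinostat libraries were all above the DMSO libraries, across the lines as well as within each. The pooled log2 fold change was 2.09 ± 0.08 (SE, n = 4 against 4, adjusted p = 5.25e-07), a 4.26-fold rise. MIR6795 lies inside NOTCH3, and the handling of strand in the counting was not stated.

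TJP3 (ZO-3), a scaffold protein of tight junctions, had the other lowest p-value and is an example of a rise with little spread. It measured 22.1 and 22.4 CPM in BRCA1+ cells with DMSO and 52.8 and 53.9 with entinostat, and 13.8 and 14.4 CPM in BRCA1-null cells with DMSO and 35.0 and 35.2 with entinostat. The 2 libraries of each group were nearly equal, the treatments lay far apart, and the pooled log2 fold change was 1.28 ± 0.05 (SE, n = 4 against 4, adjusted p = 5.25e-07). SEMA6B, a transmembrane semaphorin, was low in DMSO and showed the largest fold among the genes of lowest p. It measured 0.951 and 1.31 CPM in BRCA1+ cells with DMSO and 12.7 and 13.3 with entinostat, and 0.264 and 0.460 CPM in BRCA1-null cells with DMSO and 4.56 and 3.69 with entinostat, with no overlap between treatments in either line. The pooled log2 fold change was 3.50 ± 0.15 (SE, n = 4 against 4, adjusted p = 1.17e-06). KIF5C, a kinesin heavy chain of neurons, rose by 2.87 ± 0.15 on the log2 scale. From here on, a value after rose or fell, or beside a gene in brackets, is the pooled log2 fold change with its SE, and every gene so described had an adjusted p under 0.05 unless stated otherwise. MFI2, the iron-binding melanotransferrin, rose by 0.98 ± 0.05 from a level that was nearly the same in the 2 lines (26.6 to 27.0 CPM in the 4 DMSO libraries, 52.0 to 53.8 in the 4 entinostat libraries).

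The 12 largest rises among genes of at least 2 in mean log2 CPM whose libraries did not overlap within either line ran from 1.71 (FSD1) to 2.58 (FAM131C) on the log2 scale. They included EEF1A2, a tissue-restricted translation elongation factor (2.26 ± 0.24), the adhesion receptor BAI2 (2.25 ± 0.14), the cholesterol sulfotransferase SULT2B1 (2.17 ± 0.17) and the plasma membrane protein paralemmin, PALM (2.04 ± 0.16). ANPEP, aminopeptidase N, rose by 1.95 ± 0.20. NES, the intermediate filament protein nestin, rose by 1.91 ± 0.11, and the synaptic vesicle protein SYNGR3 by 1.79 ± 0.14. SUSD3 (1.92) and ASAP3 (1.79), the latter a GTPase-activating protein for Arf, complete the group. All 12 had a positive log2 fold change in each line, and all but NOTCH3 were under 10 CPM in every DMSO library. A gene that is low in DMSO passes the filter on low counts through the entinostat groups, which favours rises among such genes. BAI2 overlaps MIR4254, SULT2B1 overlaps copies of SNAR-A, and NES overlaps FAM72C and SRGAP2D in the table's coordinates.

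**Figure D2:**
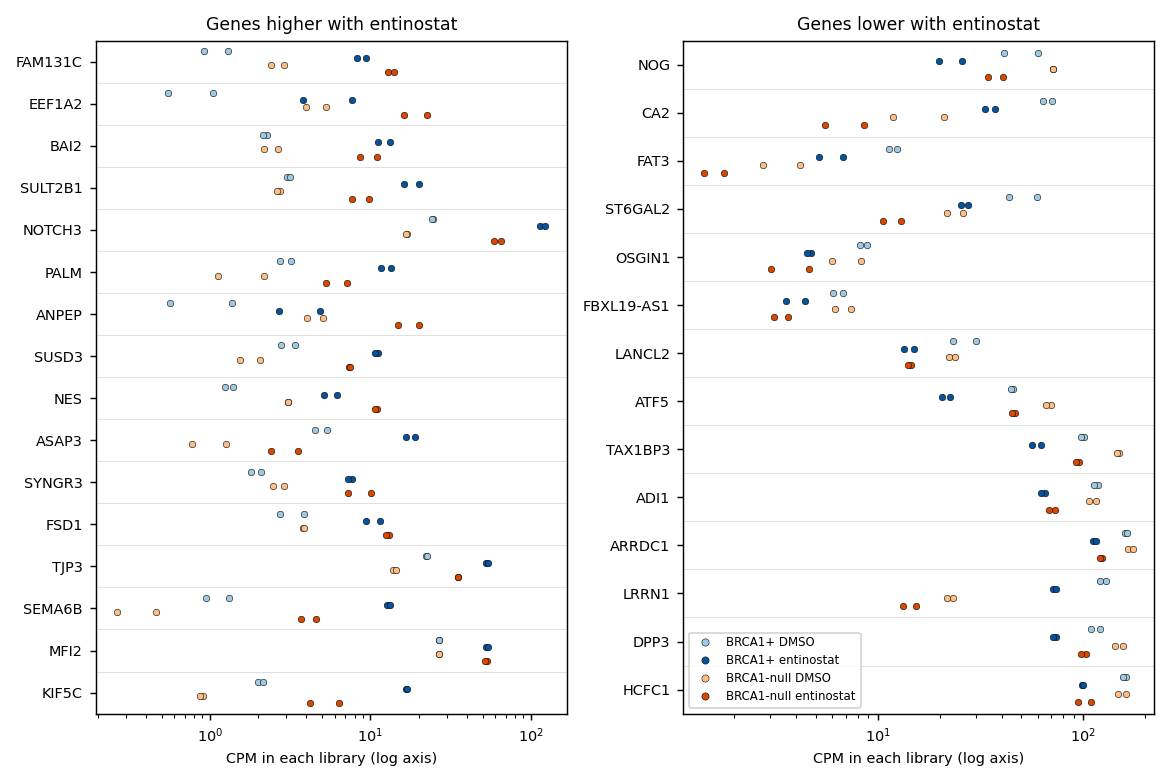
CPM of each library (log axis) for the genes of largest fold or lowest p, higher with entinostat on the left and lower on the right, with the 4 groups in colour and the keratin genes left out. In every gene shown both dark points of a line lie on the same side of both light points.

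Genes that fell did so by less. TAX1BP3, a small PDZ-domain protein, had the lowest p-value among them. Its gene lies at chromosome 17, 3566187 to 3571973 (hg19, minus strand), and it measured 101 and 97.9 CPM in BRCA1+ cells with DMSO and 62.1 and 56.1 with entinostat, and 148 and 146 CPM in BRCA1-null cells with DMSO and 95.1 and 91.9 with entinostat. The entinostat libraries of each line were below its DMSO libraries, and the pooled log2 fold change was -0.70 ± 0.05 (SE, n = 4 against 4, adjusted p = 1.12e-05). It overlaps CTNS and the read-through gene P2RX5-TAX1BP3, and CTNS, the lysosomal cystine transporter, also fell (-0.33 ± 0.05). ADI1, an enzyme of the methionine salvage pathway, lies at chromosome 2, 3501690 to 3523350 (hg19, minus strand) and measured 118 and 112 CPM in BRCA1+ cells with DMSO and 65.4 and 62.0 with entinostat, and 115 and 106 CPM in BRCA1-null cells with DMSO and 72.9 and 68.1 with entinostat. Its highest entinostat library was below its lowest DMSO library, and the pooled log2 fold change was -0.75 ± 0.06 (SE, n = 4 against 4, adjusted p = 2.29e-05). HCFC1, a chromatin-associated cofactor, fell by 0.64 ± 0.05, and the dipeptidyl peptidase DPP3 fell by 0.62 ± 0.05. ARRDC1 fell by 0.49 ± 0.04 and LRRN1 fell by 0.74 ± 0.06.

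NOG (noggin), a secreted antagonist of bone morphogenetic proteins, is taken next. Among called genes of at least 2 in mean log2 CPM without overlap in either line, it had the largest fall after 4 keratin genes. It measured 60.4 and 41.0 CPM in BRCA1+ cells with DMSO and 25.8 and 19.9 with entinostat, and 71.3 and 71.2 CPM in BRCA1-null cells with DMSO and 34.3 and 40.9 with entinostat. Both entinostat libraries of each line lay below both DMSO libraries, and the pooled log2 fold change was -1.03 ± 0.12 (SE, n = 4 against 4, adjusted p = 0.000239). CA2, a carbonic anhydrase, fell by 1.03 ± 0.16, the atypical cadherin FAT3 fell by 0.99 ± 0.14, and the sialyltransferase ST6GAL2 fell by 0.98 ± 0.11. ATF5, a transcription factor of stress responses, fell by 0.78 ± 0.09, while OSGIN1 (-0.87), LANCL2 (-0.80) and FBXL19-AS1 (-0.84) were the other falls of at least 0.78 on the log2 scale within the same limits. ATF5 overlaps NUP62, and FBXL19-AS1 overlaps FBXL19.

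Promoter sequences are shown for NOTCH3, TAX1BP3 and ADI1, which had some of the lowest p-values in their direction, and for CDKN1A, the gene best known to respond to HDAC inhibitors. The 250 bases upstream of the annotated start were taken from RefSeq (GRCh38.p14), 5' to 3' on the strand of the gene, and capitals mark the GC box GGGCGG or its reverse complement CCGCCC, the site type of SP1 and KLF factors; neighbouring boxes can overlap. NOTCH3 is shown from chr19:15200996-15201245 (minus strand), CDKN1A from chr6:36678464-36678713 (plus strand), TAX1BP3 from chr17:3668579-3668828 (minus strand) and ADI1 from chr2:3519532-3519781 (minus strand).
NOTCH3: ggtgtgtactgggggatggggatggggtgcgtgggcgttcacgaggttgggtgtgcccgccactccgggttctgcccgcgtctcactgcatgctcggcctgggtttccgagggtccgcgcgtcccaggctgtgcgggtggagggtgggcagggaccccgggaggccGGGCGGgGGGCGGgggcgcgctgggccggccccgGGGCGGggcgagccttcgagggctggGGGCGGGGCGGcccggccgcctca
CDKN1A: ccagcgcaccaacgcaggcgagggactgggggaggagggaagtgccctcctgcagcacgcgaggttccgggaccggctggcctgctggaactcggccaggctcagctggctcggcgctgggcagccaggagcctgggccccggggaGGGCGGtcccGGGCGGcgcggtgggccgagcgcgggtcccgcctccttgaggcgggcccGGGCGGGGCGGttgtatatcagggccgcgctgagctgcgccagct
TAX1BP3: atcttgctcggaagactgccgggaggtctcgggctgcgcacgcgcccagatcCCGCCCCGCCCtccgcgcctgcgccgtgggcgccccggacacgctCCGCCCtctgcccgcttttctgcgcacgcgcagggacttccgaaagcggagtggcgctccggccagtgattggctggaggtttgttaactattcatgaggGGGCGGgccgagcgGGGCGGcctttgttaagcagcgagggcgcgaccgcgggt
ADI1: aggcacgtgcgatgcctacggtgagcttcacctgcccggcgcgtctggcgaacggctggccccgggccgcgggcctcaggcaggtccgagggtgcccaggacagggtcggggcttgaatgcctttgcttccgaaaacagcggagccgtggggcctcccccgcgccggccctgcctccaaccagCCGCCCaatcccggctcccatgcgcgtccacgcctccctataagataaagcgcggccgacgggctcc
NOTCH3 held 5 GC boxes in this window, CDKN1A 4, TAX1BP3 5 and ADI1 1. The box occurred in 42.6% of all 35116 RefSeq promoter windows of this length, and a match is a description of letters. Only 11745 of the 17714 genes tested (66.3%) were matched to a promoter, under the 80% set as a minimum, and a comparison of promoter content between genes that rose and fell is therefore void.

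Direction moved with the level of expression. Among 3324 genes with a mean log2 CPM under 0, 15.4% were called higher and 1.53% lower, whereas among 2972 genes between 6 and 8, 13.3% were called higher and 21.2% lower. Rises of at least 1 on the log2 scale made up 12.3% of the genes under 0, 6.15% of those between 0 and 2, 2.50% of those between 2 and 4, 0.306% of those between 4 and 6 and 0.101% of those between 6 and 8, and none of the 675 genes at 8 or more was among them. In the upper levels, from 4 in mean log2 CPM upwards, the span of the gene moved with the direction: 9.09% of genes under 5 kb were called higher and 19.0% lower, against 20.2% higher and 14.6% lower among genes of 100 to 200 kb. Genes are not independent replicates, and these shares are descriptions. A gene of low level can pass the filter on low counts through the entinostat groups alone or the DMSO groups alone. The mean level also includes both treatments, so the shares in the lowest bins depend on the filter. The bins were not drawn again with another filter.

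**Figure D3:**
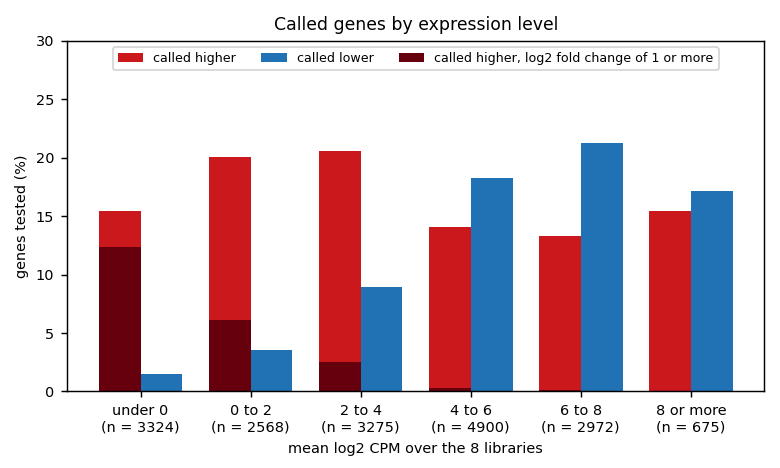
Percent of genes tested that were called higher (red, with the dark part for log2 fold changes of 1 or more) and lower (blue) by mean log2 CPM over the 8 libraries, with the number of genes below each bin. The dark part shrinks from 12.3% to 0 while the blue bars grow from 1.53% to 21.2% and end at 17.2%.

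Genes were next read in 35 lists compiled by role. The lists and this comparison were made with earlier results known, and each list is described by its counts beside the background of 16.3% higher and 11.7% lower. Counts given with the block belong beside the larger background of the blocked fit, 3893 genes higher and 3182 lower of the 17714 tested. Counts given without a library belong beside the smaller backgrounds of those fits, 2320 to 2719 genes higher and 1483 to 1963 lower. Members named without being among the list's 4 called members of lowest p were picked once their values were known.

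Of the 4 class I enzymes, which include the drug's targets HDAC1 and HDAC3, 3 were called higher. HDAC1 measured 246 and 259 CPM in BRCA1+ cells with DMSO and 291 and 312 with entinostat, and 177 and 179 CPM in BRCA1-null cells with DMSO and 219 and 224 with entinostat. The entinostat libraries were above the DMSO libraries of the same line, and the pooled log2 fold change was 0.29 ± 0.04 (SE, n = 4 against 4, adjusted p = 0.000546). HDAC3 (0.17 ± 0.04) and HDAC8 (0.32 ± 0.08) were also called higher. HDAC2 was not called (0.02 ± 0.04, adjusted p = 0.804), with overlapping libraries. Of 7 class II and IV enzymes 1 was called higher and 3 lower: HDAC5 rose (0.40 ± 0.07), while HDAC4 fell by 0.36 ± 0.09, HDAC10 fell by 0.22 ± 0.06 and HDAC6 fell by 0.17 ± 0.06. Without BRCA1+ DMSO replicate 1 the calls of HDAC3, HDAC8, HDAC10 and HDAC6 were lost, without BRCA1+ entinostat replicate 2 those of HDAC3, HDAC8 and HDAC10, and that of HDAC6 was lost in 7 of the 8 fits without 1 library (highest adjusted p of each over all alternatives 0.0681, 0.0715, 0.0610 and 0.132).

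Subunits of the HDAC corepressor complexes stayed near the background: of 37 tested, 4 were called higher and 5 lower (8 and 8 with the replicate block). MBD3, a NuRD subunit, fell by 0.57 ± 0.06 and BRMS1, a SIN3 complex subunit, fell by 0.34 ± 0.05. PHF21A of the CoREST complex (0.53 ± 0.07) and MTA3 of NuRD (0.31 ± 0.04) rose. Acetyltransferases and BET proteins, which write and read the acetyl mark, were called lower in 9 of 16 members and higher in 2, with a median log2 fold change of -0.25. CREBBP, the CBP acetyltransferase, measured 76.5 and 76.3 CPM in BRCA1+ cells with DMSO and 58.2 and 59.2 with entinostat, and 77.0 and 75.2 CPM in BRCA1-null cells with DMSO and 55.8 and 59.8 with entinostat. All 4 entinostat libraries were below all 4 DMSO libraries, and the pooled log2 fold change was -0.39 ± 0.04 (SE, n = 4 against 4, adjusted p = 0.000153). EP300, its close relative, fell by 0.37 ± 0.06, KAT2A fell by 0.48 ± 0.06, KAT5 fell by 0.38 ± 0.06, KAT6B fell by 0.46 ± 0.06 and KAT7 fell by 0.37 ± 0.05. NCOA3 (0.45 ± 0.07) and KAT2B (0.46 ± 0.10) were the members called higher.

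Of 25 genes often named as responsive to HDAC inhibitors, 3 were called higher and 5 lower (5 and 7 with the block). CDKN1A, whose product p21 inhibits cyclin-dependent kinases and whose promoter is printed with its 4 GC boxes, lies at chromosome 6, 36644237 to 36655116 (hg19, plus strand) and measured 4.20 and 3.83 CPM in BRCA1+ cells with DMSO and 13.7 and 12.4 with entinostat, and 4.86 and 3.66 CPM in BRCA1-null cells with DMSO and 11.6 and 7.95 with entinostat. The entinostat libraries were all above the DMSO libraries, and the pooled log2 fold change was 1.45 ± 0.15 (SE, n = 4 against 4, adjusted p = 0.000127). GSN, the actin-severing protein gelsolin, rose by 0.58 ± 0.08. H1F0, the linker histone H1.0, was called higher (0.44 ± 0.11) although 1 BRCA1-null DMSO library (84.6 CPM) was above 1 BRCA1-null entinostat library (81.3 CPM). CCND1 (cyclin D1) fell by 0.39 ± 0.07 and CCNB1 (cyclin B1) fell by 0.24 ± 0.04. Of 29 histone genes tested, 2 were called higher and 3 lower (2 and 5 with the block): H1FX rose (0.27 ± 0.06), H2AFX fell by 0.31 ± 0.06 and H2AFZ fell by 0.16 ± 0.04.

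Genes of mitosis and of DNA replication were called lower more often than all genes. None of 66 genes of mitosis was called higher and 21 (31.8%) were called lower, with a median log2 fold change of -0.10 (4 and 31 with the block). The falls were small. CENPN, a centromere protein, fell by 0.37 ± 0.05, CDCA8 of the chromosomal passenger complex fell by 0.28 ± 0.04, CDC25A, a phosphatase that activates cyclin-dependent kinases, fell by 0.26 ± 0.05, MKI67, the Ki-67 antigen, fell by 0.23 ± 0.05 and the kinase PLK1 fell by 0.23 ± 0.05. Of 52 genes of DNA replication 16 were called lower and 4 higher. RRM2, a subunit of ribonucleotide reductase, measured 235 and 237 CPM in BRCA1+ cells with DMSO and 179 and 173 with entinostat, and 165 and 154 CPM in BRCA1-null cells with DMSO and 120.3 and 124 with entinostat. The entinostat libraries were below the DMSO libraries within each line, and the pooled log2 fold change was -0.40 ± 0.04 (SE, n = 4 against 4, adjusted p = 8.7e-05). The helicase subunits MCM4 and MCM7 fell by 0.29 ± 0.04 and fell by 0.26 ± 0.04, and LIG1, DNA ligase 1, fell by 0.24 ± 0.04. CDK inhibitors and G1 cyclins went both ways, with 5 of 21 called higher and 5 lower: CDKN2B (p15) rose by 0.41 ± 0.08, while CCND2 (cyclin D2) fell by 0.23 ± 0.04. Their count higher was 3 without BRCA1+ entinostat replicate 1 or BRCA1+ DMSO replicate 2, and their count lower was 2 without BRCA1+ entinostat replicate 2 and 3 without BRCA1+ DMSO replicate 2, BRCA1-null DMSO replicate 1 or BRCA1-null entinostat replicate 2. Among 45 genes of homologous recombination and the Fanconi pathway, 6 were called in each direction (7 higher and 11 lower with the block), near the background, and the count higher was 3 without replicate 1 of BRCA1+ DMSO, BRCA1+ entinostat or BRCA1-null entinostat or replicate 2 of BRCA1-null DMSO. XRCC3 fell by 0.29 ± 0.05 and NBN fell by 0.21 ± 0.05, whereas FANCL (0.24 ± 0.05) and BRE (0.22 ± 0.05) rose.

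Of 38 Notch pathway genes, 14 (36.8%) were called higher and 4 lower, with a median log2 fold change of 0.16. Receptors differed: NOTCH3 rose, NOTCH2 rose by 0.22 ± 0.04 and NOTCH1 fell by 0.39 ± 0.09. Among the ligands, DLL3 measured 9.38 and 9.52 CPM in BRCA1+ cells with DMSO and 17.1 and 15.7 with entinostat, and 7.43 and 6.77 CPM in BRCA1-null cells with DMSO and 14.2 and 11.9 with entinostat. Its entinostat libraries were all above its DMSO libraries, and the pooled log2 fold change was 0.84 ± 0.08 (SE, n = 4 against 4, adjusted p = 9.06e-05). APH1B, a subunit of the gamma-secretase that cleaves Notch receptors, rose by 1.45 ± 0.17, and NUMBL, a Numb-like adaptor, by 0.40 ± 0.06. HES7, a transcriptional repressor of the HES family, rose by 1.05 ± 0.17 from a level of at most 19.4 CPM in DMSO.

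Epithelial genes were called higher more often than the background but in both directions. Of 46 genes of epithelial junctions, 21 (45.7%) were called higher and 9 (19.6%) lower. JUP (plakoglobin) rose by 0.45 ± 0.04, CLDN1 (claudin 1) by 0.43 ± 0.04 and CLDN4 (claudin 4) by 0.49 ± 0.06. CDH1 (E-cadherin) measured 56.7 and 52.1 CPM in BRCA1+ cells with DMSO and 84.0 and 85.4 with entinostat, and 42.9 and 34.8 CPM in BRCA1-null cells with DMSO and 60.7 and 48.1 with entinostat. The entinostat libraries exceeded the DMSO libraries of the same line, and the pooled log2 fold change was 0.57 ± 0.08 (SE, n = 4 against 4, adjusted p = 0.000854). ESRP2, an epithelial splicing regulator, fell by 0.53 ± 0.05, the desmosomal plakophilin PKP3 fell by 0.40 ± 0.05 and desmoplakin, DSP, fell by 0.26 ± 0.04. GRHL3, an epithelial transcription factor, rose by 1.29 ± 0.25. KRT19, a keratin of simple epithelia, measured 508 and 471 CPM in BRCA1+ cells with DMSO and 709 and 742 with entinostat, and 484 and 505 CPM in BRCA1-null cells with DMSO and 667 and 669 with entinostat. Both lines showed the rise with no overlap, and the pooled log2 fold change was 0.50 ± 0.04 (SE, n = 4 against 4, adjusted p = 3.63e-05). KRT18 (0.20 ± 0.04), KRT13 (1.79 ± 0.15) and KRT15 (0.82 ± 0.13) rose as well. KRT18 overlaps KRT8 in the table's coordinates.

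Of 29 keratins tested, 12 were called higher and 4 lower, but a stretch of neighbouring keratin genes on chromosome 12, from KRT71 to KRT78 (hg19, 52937693 to 53242778), has to be read apart. In 7 of the 8 genes from KRT71 to KRT76 the same 18 counts were found in BRCA1+ DMSO replicate 1, the same 27 were found in 7 of them in BRCA1-null DMSO replicate 1, and the same 90 in 6 of them in BRCA1-null entinostat replicate 2. KRT4 and KRT79 had equal counts in 4 of the 8 libraries, including 9504 in BRCA1-null DMSO replicate 2, and lay within 3% of each other in 7, counting 1 in which both were at 0. KRT4 measured 7.20 and 112 CPM in BRCA1+ cells with DMSO and 0 and 2.33 with entinostat, and 166 and 175 CPM in BRCA1-null cells with DMSO and 1.43 and 2.20 with entinostat, so that the BRCA1+ DMSO libraries themselves were far apart. The pooled log2 fold changes of KRT3, KRT4, KRT78 and KRT79 were -5.69, -6.17, -6.15 and -6.45, and for KRT4 the value ran from -6.77 to -5.73 as single libraries were left out. KRT71 (1.82), KRT72 (1.83), KRT73 (1.80), KRT74 (1.81), KRT2 (1.73) and KRT1 (1.62) were called higher in the same stretch. Counts that neighbouring genes share are not separate measurements of each gene, and what made them equal was not tested. KRT71 is the 1 gene of the 12 in the stretch that is not among the 29 listed. Without the other 11, 18 keratins remained, of which 7 were called higher and none lower, with a median of 0.48 as over all 29.

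**Figure D4:**
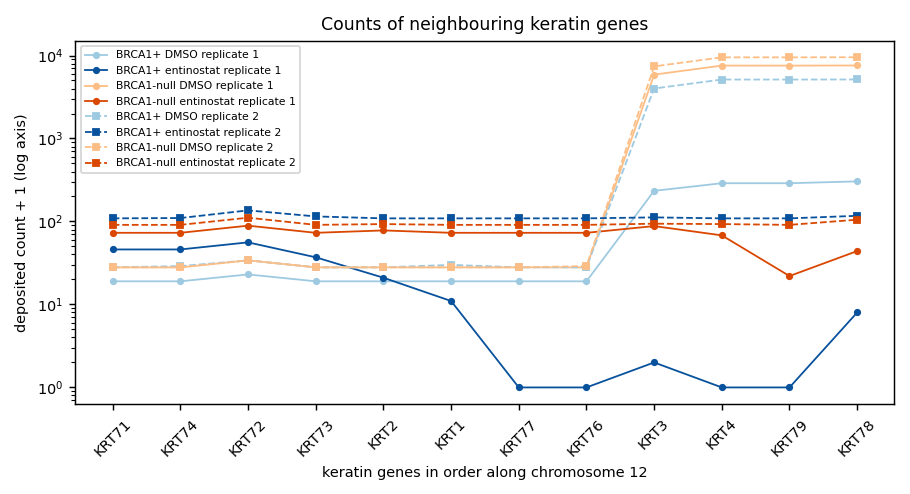
Deposited counts plus 1 (log axis) of 12 neighbouring keratin genes in their order on chromosome 12, with 1 line per library. The lines run level across genes, the DMSO libraries at 18 to 33 counts up to KRT76 and 3 of them at 4001 or more from KRT3 on, while the BRCA1+ entinostat replicate 1 library falls from 55 counts at KRT72 to 0 at KRT77.

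Mesenchymal and matrix genes were also called higher more often than lower. Of 30 mesenchymal regulators and markers 12 (40%) were called higher and 1 lower (16 and 3 with the block). VIM (vimentin) measured 46.1 and 52.1 CPM in BRCA1+ cells with DMSO and 107 and 114 with entinostat, and 199.6 and 201 CPM in BRCA1-null cells with DMSO and 298 and 273 with entinostat. The entinostat libraries were above the DMSO libraries within each line, though the DMSO level of BRCA1-null cells exceeded the entinostat level of BRCA1+ cells, and the pooled log2 fold change was 0.81 ± 0.11 (SE, n = 4 against 4, adjusted p = 0.000519). COL1A1 (type I collagen) rose by 1.39 ± 0.13, SPARC by 0.51 ± 0.07 and SNAI1, a repressor of E-cadherin, by 1.17 ± 0.17. Of 31 integrins and laminins 15 (48.4%) were called higher and 1 lower, with a median of 0.20. ITGB3 (integrin beta 3) measured 242 and 234 CPM in BRCA1+ cells with DMSO and 382 and 394 with entinostat, and 89.8 and 87.1 CPM in BRCA1-null cells with DMSO and 153 and 141 with entinostat. The treatments did not overlap within a line, and the pooled log2 fold change was 0.72 ± 0.04 (SE, n = 4 against 4, adjusted p = 5.51e-06). ITGA1 rose by 1.63 ± 0.11, LAMA3 by 0.48 ± 0.06 and LAMB3 by 0.86 ± 0.11. The fibroblast markers summed to 13.7 to 18.4 CPM in BRCA1+ DMSO, 27.7 to 35.7 in BRCA1+ entinostat, 39.5 to 56.1 in BRCA1-null DMSO and 58.6 to 84.5 in BRCA1-null entinostat, and their part in these counts was not tested.

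Tubulin genes were called in both directions. Of 27 tubulins and microtubule stabilisers 11 (40.7%) were called higher and 3 lower. The members called higher were more often genes of microtubule-associated proteins than tubulins. TUBB2B (1.5 ± 0.11) and TUBA1A (1.19 ± 0.12), tubulins abundant in neurons, rose, as did TUBB4A (3.06 ± 0.39), which did not exceed 0.261 CPM in any DMSO library. The tubulins TUBB3 (-0.15 ± 0.10) and TUBB2A (-0.03 ± 0.11) were not called. TUBB4B, the widely expressed form at 733 to 812 CPM in DMSO, fell by 0.38 ± 0.05. Of 38 actin filament regulators 14 (36.8%) were called higher and 4 lower (18 and 8 with the block). LIMA1, which bundles actin filaments, rose by 0.52 ± 0.04 and moesin, MSN, by 0.41 ± 0.05, while FLII (flightless I) fell by 0.30 ± 0.04.

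Neuronal genes repressed by REST, which recruits HDAC complexes through CoREST and SIN3, had the highest share called higher of the lists with over 10 tested members. Of 44 tested, 22 (50%) were called higher and 2 lower, with a median log2 fold change of 0.55 (0.57 in BRCA1+ and 0.37 in BRCA1-null). L1CAM, a neural cell adhesion molecule that ovarian carcinoma cells also express, measured 203 and 188 CPM in BRCA1+ cells with DMSO and 305 and 284 with entinostat, and 210.4 and 192 CPM in BRCA1-null cells with DMSO and 300.4 and 277 with entinostat. All entinostat libraries were above all DMSO libraries, and the pooled log2 fold change was 0.55 ± 0.05 (SE, n = 4 against 4, adjusted p = 4.5e-05). CELSR3, an atypical cadherin, rose by 0.65 ± 0.07, and RAB3A, a GTPase of synaptic vesicles, by 0.72 ± 0.08. SYT11 (synaptotagmin 11) rose by 1.51 ± 0.20, SYN1 (synapsin 1) by 1.39 ± 0.25 and the potassium channel gene KCNH2 by 1.75 ± 0.31. In DMSO, SYN1 was at 0.276 to 0.588 CPM and KCNH2 at 0.0218 to 0.813 CPM. The lowest KCNH2 value, in BRCA1+ DMSO replicate 2, was under the floor of 0.0654 CPM of that library, so that the size of its rise is imprecise. Of 67 genes listed, 44 passed the filter on low counts, which a gene low in DMSO can pass through the entinostat groups alone, and the share is no more than a description of those 44.

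**Figure D5:**
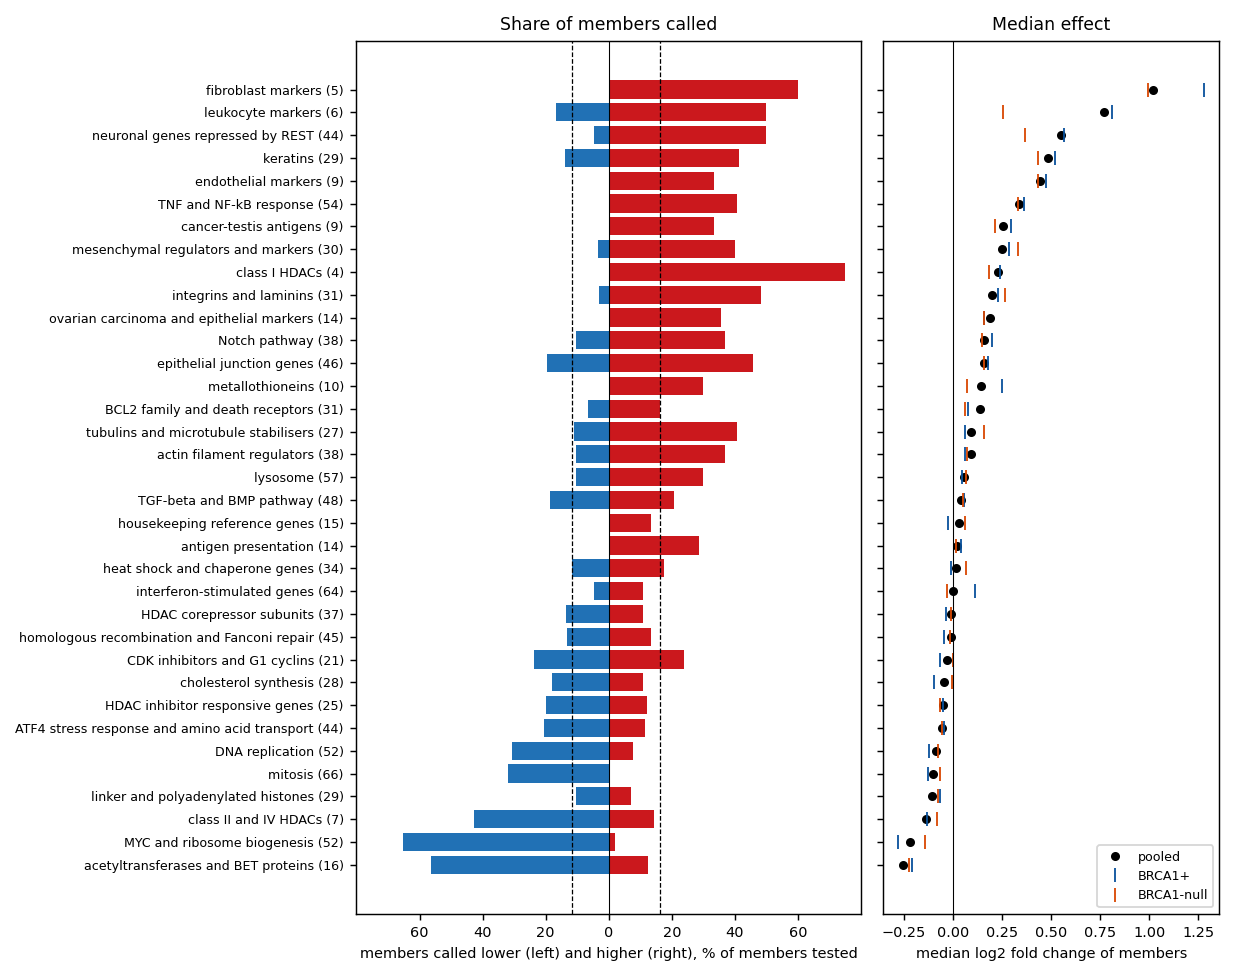
Left, percent of the tested members of each of 35 gene lists that were called lower (blue, to the left of 0) and higher (red, to the right of 0), with the number tested in brackets and dashed lines at the 11.7% and 16.3% found over all genes; right, the median log2 fold change of the members in the pooled comparison (black) and in each line. The MYC list reaches 65.4% lower and the REST list 50% higher.

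Of 54 genes of the TNF and NF-kB response, 22 (40.7%) were called higher and none lower, with a median of 0.34 (32 and 1 with the block). IL1A, a proinflammatory cytokine, measured 3.10 and 3.31 CPM in BRCA1+ cells with DMSO and 11.1 and 9.66 with entinostat, and 23.4 and 18 CPM in BRCA1-null cells with DMSO and 43.3 and 39.2 with entinostat. The treatments were apart within each line, with a higher DMSO level in BRCA1-null cells, and the pooled log2 fold change was 1.18 ± 0.13 (SE, n = 4 against 4, adjusted p = 0.000164). TNFAIP2 rose by 1.05 ± 0.10, the adhesion molecule ICAM1 by 0.61 ± 0.07 and the urokinase receptor PLAUR by 0.56 ± 0.05. The chemokine CXCL8 rose by 1.25 ± 0.18 and PTGS2 (cyclooxygenase 2) by 1.42 ± 0.28, the latter from 0.225 to 0.374 CPM in DMSO to 0.539 to 1.19 with entinostat. With all 8 libraries, interferon-stimulated genes were called no more often than the background. Of 64 tested, 7 (10.9%) were higher and 3 lower (14 and 10 with the block), and the median was 0.00167. The number higher was 4 without BRCA1+ entinostat replicate 1, beside 2355 of all 17714 genes. It was 14 without BRCA1-null DMSO replicate 1 (2536 of all genes) and 12 without BRCA1-null entinostat replicate 2 (2719 of all genes). These counts of 14 and 12 are larger shares than over all genes in the same fits. UBE2L6, the conjugating enzyme for ISG15, rose by 1.44 ± 0.12, IFI30, a lysosomal thiol reductase, by 0.59 ± 0.08 and the exonuclease ISG20 by 1.03 ± 0.16. CASP1 was called (1.46 ± 0.33) at under 1 CPM in all libraries, and the call was lost with a mean per group (adjusted p = 0.0600). Only 14 of 35 antigen presentation genes were tested, 4 of them called higher. NLRC5, an activator of MHC class I genes, rose by 1.02 ± 0.17 and B2M by 0.26 ± 0.05. The endoplasmic reticulum proteins CALR (0.13 ± 0.04) and PDIA3 (0.10 ± 0.03) were the smallest of these. Leaving out single libraries, the call of CALR was lost in 6 of 8 fits and that of PDIA3 in 8 of 8 (highest adjusted p 0.124 and 0.120).

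The genes with the most frequent falls were those of MYC and ribosome biogenesis. Of 52 tested, 34 (65.4%) were called lower and 1 higher, with a median log2 fold change of -0.22 (39 and 1 with the block). SRM, spermidine synthase, measured 133 and 141 CPM in BRCA1+ cells with DMSO and 89.8 and 89.4 with entinostat, and 147 and 139 CPM in BRCA1-null cells with DMSO and 115 and 112 with entinostat. The entinostat libraries were all below the DMSO libraries, and the pooled log2 fold change was -0.47 ± 0.06 (SE, n = 4 against 4, adjusted p = 0.000305). RRP9, which processes ribosomal RNA, fell by 0.37 ± 0.04, and UBTF, a factor of RNA polymerase I, fell by 0.35 ± 0.04. NCL (nucleolin) fell by 0.32 ± 0.05 and ornithine decarboxylase, ODC1, fell by 0.32 ± 0.07. MXD4, a partner of MAX that opposes MYC, fell by 0.48 ± 0.06. The 1 member called higher was MXI1, of the same family (0.21 ± 0.06).

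Amino acid transport and the ATF4 response had 9 of 44 members called lower and 5 higher (17 and 7 with the block). SLC7A5, the large neutral amino acid transporter LAT1, fell by 0.43 ± 0.05 and the glycine transporter SLC6A9 fell by 0.50 ± 0.06, while DDIT4, an inhibitor of mTORC1 signalling, rose by 0.31 ± 0.05. Of 28 cholesterol synthesis genes, 5 were called lower and 3 higher (11 and 5 with the block): DHCR7 fell by 0.32 ± 0.08 and NSDHL fell by 0.21 ± 0.05, enzymes of the late steps, and INSIG2 (0.25 ± 0.06) and the sterol carrier STARD4 (0.28 ± 0.06) rose. Without BRCA1+ DMSO replicate 1, BRCA1+ entinostat replicate 2 or BRCA1-null DMSO replicate 2, 2 of these genes were called lower. Of 57 lysosomal genes, 17 (29.8%) were called higher and 6 lower, the latter count being 2 without BRCA1+ DMSO replicate 1, BRCA1-null DMSO replicate 1 or BRCA1+ entinostat replicate 2 and 3 without BRCA1-null entinostat replicate 2. Among them fucosidase FUCA1 (0.46 ± 0.06), the proton pump subunit ATP6V0A1 (0.40 ± 0.05) and cathepsin B, CTSB (0.32 ± 0.05), rose. Heat shock and chaperone genes went both ways, with 6 of 34 called higher and 4 lower (10 and 12 with the block). HSPA12A (1.11 ± 0.16), HSPA2 (0.99 ± 0.15) and the endoplasmic reticulum chaperone HSPA5 (0.26 ± 0.04) rose, and mitochondrial HSPD1 fell by 0.26 ± 0.04.

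Of 31 regulators of apoptosis, 5 were called higher and 2 lower (10 and 8 with the block). BAK1, a pore-forming protein of the BCL2 family, rose by 0.36 ± 0.05, and TNFSF10, the death ligand TRAIL, rose by 0.96 ± 0.16. BMF, a BH3-only protein, rose by 1.19 ± 0.27, and CFLAR, which blocks caspase 8, fell by 0.27 ± 0.04. Of 10 metallothioneins, which bind zinc and other metals, 3 were called higher and none lower (6 and 0 with the block): MT1A (0.63 ± 0.12), MT1F (0.60 ± 0.13) and MT1M (0.44 ± 0.14). They are close copies between which reads can be split, and the call of MT1M was lost in 6 of the 8 fits without 1 library (highest adjusted p 0.157). Of 48 genes of the TGF-beta and BMP pathway 10 were called higher and 9 lower (17 and 13 with the block, 6 and 5 without BRCA1+ entinostat replicate 2, and 5 lower without BRCA1+ DMSO replicate 2). LTBP4 (0.63 ± 0.09) and LTBP1 (0.43 ± 0.07), which bind latent TGF-beta, and TGFB1 (0.43 ± 0.10) rose, while SKI, a repressor of SMAD signalling, fell by 0.38 ± 0.04 and SMAD4 fell by 0.25 ± 0.05. Of 47 genes listed as cancer-testis antigens or members of their families only 9 were tested. DDX43 (0.58 ± 0.09), PRAME (0.26 ± 0.05) and the MAGE family member MAGED1 (0.25 ± 0.05) were called higher.

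Where only a few members of a list were called in 1 direction, the remaining ones are given here, as log2 fold changes. Corepressor subunits called lower also included SAP130 (-0.29), MTA2 (-0.18) and CDK2AP1 (-0.17), and those called higher RCOR2 (0.64) and TBL1XR1 (0.32). Of the HDAC inhibitor genes CTPS1 (-0.30), HMGB2 (-0.30) and BIRC5, the apoptosis inhibitor survivin (-0.19), were lower, as was the replacement histone gene H3F3B (-0.13). In the G1 list CCND3 (0.33), CDKN2D (0.51) and E2F2 (0.39) were higher, and RBL2 (-0.18), CCNE1 (-0.34) and CDKN1B, p27 (-0.26), lower. The 4 replication genes called higher were RFC1 and RFC4 of the clamp loader (0.19 and 0.19), the primase subunit PRIM2 (0.17) and the origin recognition subunit ORC3 (0.17). Among regulators of apoptosis the TRAIL receptor TNFRSF10B (0.22) and BCL2L1 (0.16) were also higher. Notch genes called lower besides NOTCH1 were the coactivator MAML1 (-0.27), the ligand JAG1 (-0.31) and the gamma-secretase subunit PSEN2 (-0.31). The 1 mesenchymal member called lower was the cadherin CDH11 (-0.48), and the 1 integrin ITGB4 (-0.21). The neural adhesion molecule NRCAM was called lower among the neuronal genes (-0.14).

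The widely expressed cytoskeletal genes TUBA1C (-0.22), TUBA1B (-0.14), ACTG1 (-0.23), MYH10 (-0.13) and zyxin, ZYX (-0.16), were called lower. The 3 interferon-stimulated genes called lower were the tryptophanyl-tRNA synthetase gene WARS (-0.16), NMI (-0.33) and DTX3L (-0.41). Of cholesterol genes SREBF1, a transcription factor of lipid synthesis, was higher (0.23), and ACAT2 (-0.23), IDI1 (-0.18) and LSS (-0.20) were lower. The amino acid transporters SLC43A1 (0.55), SLC7A7 (0.50) and SLC7A8 (0.71) and the transcription factor CEBPB (0.53) were higher. The chaperone genes BAG2 (-0.33) and HSP90AA1 (-0.18) and the heat shock factor HSF1 (-0.13) were lower. Most of these changes were small, and 28 of the 47 genes in these lists of remaining members, MXI1 included, lost the call under another scaling, filter, test or model or without a library, while none of them changed sign. None reached 1 in size.

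Some markers of other cell types were also called, at levels of up to 84.1 CPM in a library (CDH5). Of 5 fibroblast markers tested, COL1A1, THY1 (1.02 ± 0.15) and PDGFRA were called higher. PDGFRA had 1, 0, 2 and 1 counts in the DMSO libraries and 12, 42, 14 and 2 in the entinostat libraries, so that no fold is given. Of 9 endothelial markers, CDH5 (VE-cadherin) rose by 1.35 ± 0.24, TIE1 by 1.38 ± 0.27 and ESAM by 0.72 ± 0.18 (5 called with the block). CDH5 measured 4.15 and 6.82 CPM in BRCA1+ cells with DMSO and 19.6 and 27.1 with entinostat, and 26.8 and 46.7 CPM in BRCA1-null cells with DMSO and 62.6 and 84.1 with entinostat, with no overlap within a line. The call of ESAM was lost without BRCA1+ DMSO replicate 2 (adjusted p = 0.0624). Of 6 leukocyte markers CD14 (0.97 ± 0.21), CD8A (1.59 ± 0.45) and NCAM1 (0.99 ± 0.33) were called higher, all under 5 CPM. CD8A had 0 and 11 counts in BRCA1+ DMSO against 14 and 14 in BRCA1+ entinostat. In BRCA1-null cells it had 12 and 9 counts in DMSO against 38 and 21 in entinostat, so that its fold rests on few counts. The log2 fold change of NCAM1 was 1.36 in the BRCA1+ line but -0.085 in the BRCA1-null line, so that only the former line was higher. Without single libraries the calls of CD8A and NCAM1 were lost in 3 and 6 of 8 fits (highest adjusted p over all alternatives 0.0881 and 0.296). ITGAM was called lower on 3 and 62 counts in BRCA1+ DMSO and 67 and 3 in BRCA1-null DMSO against 0 to 4 with entinostat, so that 1 DMSO library of each line held nearly all of its counts, and the call was lost in 6 of the 8 fits without 1 library (highest adjusted p 0.104). The endothelial markers summed to 28.9 to 63.2 CPM in the DMSO libraries and 47.4 to 104.8 in the entinostat libraries, and their part in the results was not tested. Of 14 ovarian carcinoma and epithelial markers 5 were called higher and none lower: KRT8, KRT18, KRT19, CDH1 and WFDC2 (0.82 ± 0.18). Of 15 housekeeping reference genes 2, B2M and ACTB (0.18 ± 0.05), were called higher and none lower (3 and 3 with the block), with a median of 0.030. The call of ACTB was lost in 4 of the 8 fits without 1 library (highest adjusted p 0.0611).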

How the data were processed

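Poly(A) RNA sequencing of 8 libraries was analysed. The authors mapped the reads with TopHat 2 to the hg19 assembly, quantified genes with NGSUtils and deposited raw read counts per gene with no normalisation. How spliced reads, strand and reads with several positions were counted was not given in the sources used here. The table held 25369 named genes, 1 further entry without a name had 0 counts, and all 8 columns were matched to a library by the labels, so that 0 columns were left unused.

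Tests used edgeR (version 4.0.16; R version 4.3.3) on these counts. The filterByExpr function, given the 4 groups, left 17714 genes, library sizes were scaled by TMM, and the quasi-likelihood fit (legacy set to FALSE) held terms for line and treatment, with 5 residual degrees of freedom. A gene was called at a Benjamini-Hochberg adjusted p under 0.05 over all genes tested, two-sided, and the standard error (SE) is the log2 fold change divided by the root of the F statistic. Effects within a line and their difference came from a fit with a mean per group (4 residual degrees of freedom). CPM values carry no prior count, and mean log2 CPM carries one of 2. A count of 3 was taken as the floor.

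Replicate numbers come from the titles. Deviations of same-numbered libraries from their group means correlated by 0.287 between the BRCA1+ groups and 0.200 between the BRCA1-null groups, and by 0.0523 to 0.129 between groups of different lines. The rule for pairing was a correlation over 0.1 in both lines. BRCA1-null DMSO also passed 0.1 with BRCA1+ DMSO (0.129) and BRCA1+ entinostat (0.120), so the rule does not single out pairs within a line. By this rule the numbers were taken to pair the libraries within a line. A fit with that pairing as a block was an alternative, as were a block shared by the lines, DESeq2 size factors, upper-quartile factors, 2 other filters, the likelihood ratio and legacy quasi-likelihood tests, DESeq2 1.42.0, a mean per group, a log2 fold change of at least 1 and leaving out each library.

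The comparison, the gene lists and the rule for named genes were chosen with earlier results of these data known. Named were the 12 largest rises and 12 largest falls of called genes that reached 2 in mean log2 CPM and had no overlap within a line, the 6 lowest p-values in each direction, up to 4 called members of lowest p of each list, and HDAC1, HDAC2, HDAC3, HDAC8, CDKN1A and H1F0. All other genes were named after their values were seen, and the values of 2 listed genes are not reported here. The pipeline was tested on simulated data for the pooled comparison with 17714 genes: it recovered 100% of 50 genes changed by 1 on the log2 scale in each direction, 90% of 50 raised by 0.5 and 82% of 50 lowered by 0.5, with 8 false calls. The simulation gave all genes the same dispersion and had no effect of the replicate number. Only genes of at least 2 in mean log2 CPM were changed. These shares and false calls therefore need not hold for the measured libraries or for genes of lower level.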

Additional observations from a re-analysis of the deposited data

How the results depend on the processing

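Of 231 called genes followed through the alternatives, 190 kept their call under each alternative that tested them, in scaling, filter, test, model or libraries. The other 41 lost it under at least 1, and none changed sign. The stricter threshold of 1 on the log2 scale is not counted there. KRT1, KRT2, KRT73 and KRT74, named above as called higher, were not followed. Some genes of low level, among them PDGFRA, SYN1, KCNH2, PTGS2 and ABCB1, were not tested under the filter of at least 1 CPM in 4 libraries. Over the other scalings, filters and tests the number of genes called ranged from 4622 (mean per group) to 5236 (likelihood ratio test), with 4969 by DESeq2, and without single libraries from 3803 to 4682. Every call that an alternative shared with the main fit kept its sign. The median of all genes moved by at most 0.0253. With the replicate block within each line, the pairing that the numbers were taken to give, 3182 genes were called lower in place of 2075, and 3808 in place of 1212 were called in the pooled comparison and in both lines. Fits with this block leave fewer residual degrees of freedom than the same fits without it. With 1 block shared by the lines the latter number was 2401, and without single libraries it ranged from 422 to 745, where fewer libraries leave the contrast within a line with a group of 1 that is assumed to vary like the others. Neither block moved any of the 232 genes followed, HDAC2 included, across the threshold. Requiring a log2 fold change of at least 1 left 707 genes, 668 higher and 39 lower (94.5% higher), of which 311 were called in both lines. Leaving out the keratin stretch of chromosome 12, an alternative chosen after seeing the data, gave 4957 called genes, 2886 higher and 2071 lower, and 7 higher and 0 lower among the other keratins.

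With 4 libraries a side and nothing stating separate cultures, small changes that miss the threshold are not shown to be absent.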

Other observations

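Among further genes with a large rise, chosen after their values were seen, were several that belong to no list. SLFN11, a Schlafen family protein known for blocking replication in cells with damaged DNA, measured 1.03 and 0.436 CPM in BRCA1+ cells with DMSO and 3.63 and 2.95 with entinostat, and 0.857 and 1.12 CPM in BRCA1-null cells with DMSO and 4.84 and 5.31 with entinostat. The treatments did not overlap in either line, and the pooled log2 fold change was 2.28 ± 0.19 (SE, n = 4 against 4, adjusted p = 3.43e-05). CRABP2, which carries retinoic acid to the nucleus, measured 0.925 and 1.26 CPM in BRCA1+ cells with DMSO and 4.48 and 7.05 with entinostat, and 2.29 and 2.24 CPM in BRCA1-null cells with DMSO and 13.1 and 7.78 with entinostat, with a pooled log2 fold change of 2.29 ± 0.23. TESC (tescalcin), a calcium-binding protein, rose by 2.51 ± 0.18, with higher levels in BRCA1+ than in BRCA1-null cells under both treatments. LIPH, a phospholipase that makes lysophosphatidic acid, rose by 2.14 ± 0.23. ABCB1, the drug efflux pump P-glycoprotein, was called higher (2.09 ± 0.47, adjusted p = 0.00702) at 0.05 to 0.198 CPM in DMSO and 0.172 to 0.704 in entinostat, so that the treatments overlapped between the lines and the level stayed under 1 CPM. Its lowest DMSO value, in BRCA1+ DMSO replicate 1, was under the floor of 0.0750 CPM of that library, so that the size of its rise is imprecise.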
